A study of Mus musculus with 20 samples.

Results

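The 10 genes described here encode feedback inhibitors of the ERK kinase pathway: the dual-specificity phosphatases Dusp1, Dusp2, Dusp4, Dusp5 and Dusp6, the Sprouty proteins Spry1, Spry2 and Spry4, and the SPRED proteins Spred1 and Spred2. They were taken from a list of named genes, and all 10 were found among 18194 genes on the arrays, with 25 probe sets that name 1 of them alone. Each gene was represented by its probe set with the highest mean over the 20 arrays. The cells were CFU-E, committed precursors of red cells named for the erythroid colonies they form, isolated from fetal livers of BALB/c mouse embryos at embryonic day 13.5 by magnetic removal of cells carrying Ter119 or markers of other lineages. In the group with erythropoietin (Epo, 0.5 U/ml), 1 array was made at each hour from 0 to 8 h and at 14, 19 and 24 h, 12 arrays in all. In the group without Epo, 1 array was made at each hour from 0 to 7 h, 8 arrays in all. The design text describes fresh cells starved for 1 h before stimulation, whereas the labels' protocols describe a culture of 12 to 14 h with Epo after sorting, and both groups carry the same description. No treatment and time has a second array, and nothing in the labels states that times came from separate cultures. The p-values therefore reflect how far single arrays, or their matched differences, scatter around a fitted mean or line. That scatter may be technical and also holds any change over the hours that the fit leaves out.

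ERK is activated through a chain that runs from receptors such as the Epo receptor and KIT over the GTPase RAS and the kinases RAF and MEK. The DUSP proteins remove phosphate from both the threonine and the tyrosine that activate a MAP kinase, Sprouty proteins act further up between the receptor and RAF, and SPRED proteins bring the RAS inhibitor neurofibromin to the membrane. Several of these genes are themselves switched on by ERK activity, which is why they are read as feedback inhibitors. In erythroid progenitors both Epo and stem cell factor signal through this chain.

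The array values are on a log2 scale, so a difference of 1 is a 2-fold change, and the level of one gene is not compared with that of another. Of the erythroid markers 10 of 11 had a mean above the median of all genes, as had 10 of 11 hepatocyte, 5 of 13 granulocyte, 4 of 10 megakaryocyte, 2 of 14 macrophage, 2 of 11 lymphoid, 0 of 8 mast cell and 0 of 13 endothelial and stromal markers. At 0 h 551 of 18194 genes already lay at least 2-fold apart between the groups, 436 of them higher in the group with Epo, and 11 of 11 hepatocyte markers were higher there. The summed hepatocyte signal (log2) lay at 12.3 to 13.6 at 1 to 7 h without Epo, at 12.8 to 14.5 with Epo, and at 8.81 to 11.3 at 14 to 24 h. The granulocyte signal was 11.01 without and 9.43 with Epo at 0 h, with 1 of 13 markers higher with Epo, and lay at 8.73 to 10.3 without and 8.66 to 9.03 with Epo at 1 to 7 h. The megakaryocyte signal lay at 8.20 to 8.44 at 1 to 7 h with Epo and at 9.03 to 9.25 at 14 to 24 h. The summed endothelial and stromal signal lay at 7.21 to 7.44, 7.18 to 7.62 and 7.43 to 7.64 at 1 to 7 h without Epo, 1 to 7 h with Epo and 14 to 24 h. The part of other cells in the results was not tested, and in a bulk sample fewer cells of a type and less RNA per cell cannot be told apart. The array of 24 h with Epo had a narrower spread of values (SD 2.31) than those of 1 to 7 h (2.48 to 2.51 with Epo and 2.53 to 2.56 without). The spread of the arrays of 0, 8, 14 and 19 h was not compared. Of the members, 6 had a mean above the median of all genes, and Dusp4, Dusp5, Dusp6 and Spry2 lay below it, where background makes up more of the signal.

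Among the members Dusp1 differed most between the groups. It encodes a nuclear phosphatase of ERK, JNK and p38 and is a classical immediate early gene. Without Epo it rose from 7.79 at 0 h to 11.38 at 1 h and then lay at 10.31, 9.81, 10.00, 9.90, 9.91 and 9.95 at 2 to 7 h. With Epo it lay at 8.39 at 0 h, 8.23 at 1 h and 7.23 at 2 h, and then at 7.71, 7.78, 8.08, 8.33, 8.64 and 8.64 at 3 to 8 h. At 1 to 7 h every array without Epo was above every array with Epo, and the 0 h values lay the other way round by 0.60. The mean of the 7 matched differences, Epo minus no Epo, was -2.18 ± 0.21 (SE, n = 7 pairs; limma adjusted p = 1.36e-05), with 7 of 7 pairs lower with Epo, and by size it ranked 50 among 18194 genes. With the 0 h difference subtracted it was -2.78 (adjusted p = 5.96e-05 with a linear drift of the differences allowed, and 0.193 without).

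**Figure D1:**
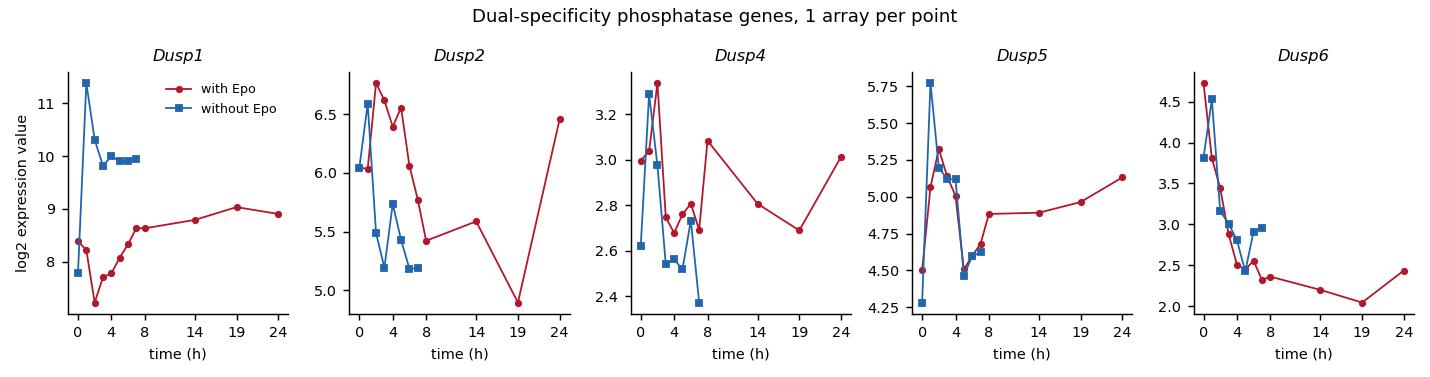
Log2 expression value (vertical axis, its own range in each panel) of the 5 DUSP genes against time in hours, with Epo (red circles, 12 arrays) and without (blue squares, 8 arrays), 1 array per point and no error bars. Dusp1 lies between 9.81 and 11.38 without Epo at 1 to 7 h, above its 7.23 to 8.64 with Epo, and all 5 genes have their highest value without Epo at 1 h.

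The gap in Dusp1 narrowed over the hours. The matched difference was -3.15 at 1 h, -3.08 at 2 h, -2.10 at 3 h, -2.21 at 4 h, -1.82 at 5 h, -1.57 at 6 h and -1.31 at 7 h. Its slope was 0.31 ± 0.04 per hour (SE; limma adjusted p = 0.000111), one of 2 members called. Over all genes 15.2% were called for such a slope, 7.26% with a rising and 7.97% with a falling difference. The slope held after the start only. With 0 h as a further matched difference it was -0.02 (adjusted p = 0.949). With Epo alone, Dusp1 rose by 0.14 ± 0.04 per hour over 1 to 8 h (SE; limma adjusted p = 0.0491), the 1 member called rising against 2.18% of all genes. That call ended when any single array from 2 to 8 h was left out (adjusted p up to 0.199 without 2 h).

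In the first hour without Epo all 5 DUSP genes went up. Without Epo the highest of the 8 arrays was that of 1 h for 5 of 5 DUSP genes and 6 of 10 members (Spry2 being the other), against 15.1% of all genes. Dusp1 rose by 3.59 between the 0 h and the 1 h array, rank 10 among the rises of 18194 genes, and Dusp5 by 1.49. The rises of Dusp6 (0.71), Dusp4 (0.67) and Dusp2 (0.55) stayed under 2-fold. So 2 of 10 members rose at least 2-fold, against 0.374% of all genes, and 0 of 10 fell that far, against 0.269%. With Epo, 0 of 10 members moved by 2-fold in the first hour, against 0.341% of genes that rose and 0.951% that fell by that much. There Dusp5 changed by 0.56 and Dusp6 by -0.92. With Epo the highest of the 12 arrays was that of 2 h for Dusp2, Dusp4 and Dusp5 (8.36% of all genes), that of 0 h for Dusp6 and Spry2 (14.4%) and that of 1 h for Spred2 (4.03%). Each of these changes rests on a pair of single arrays and has no replicate check.

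**Figure D2:**
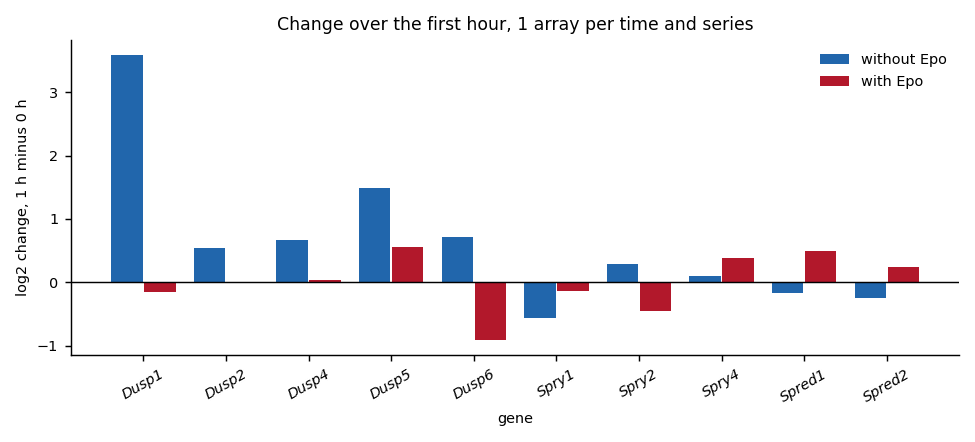
Log2 change from the 0 h to the 1 h array (vertical axis) for the 10 genes, without Epo (blue bars) and with Epo (red bars), from 1 array per time and group with no error bars. The Dusp1 bar without Epo stands at 3.59 and that of Dusp5 at 1.49, and no bar with Epo reaches 1 in either direction.

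The promoters of Dusp1 and Dusp5, the members that passed 2-fold in that hour, are shown because each holds a motif of signal-induced transcription. The sequences are the 250 bases before the gene's start in RefSeq, build GRCm38.p6, 5′ to 3′ on the gene's strand, at chr17:26508473-26508722 (minus strand) for Dusp1 and chr19:53528895-53529144 (plus strand) for Dusp5. Capitals mark a cyclic AMP response element (CRE, TGACGTCA) in Dusp1 and a pair of adjoining CArG boxes, the sequence bound by serum response factor, in Dusp5.
Dusp1: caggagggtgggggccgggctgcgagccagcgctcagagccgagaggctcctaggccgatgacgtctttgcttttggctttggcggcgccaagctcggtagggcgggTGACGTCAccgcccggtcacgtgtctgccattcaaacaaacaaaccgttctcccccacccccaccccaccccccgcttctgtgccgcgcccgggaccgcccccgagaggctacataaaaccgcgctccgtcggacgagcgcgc
Dusp5: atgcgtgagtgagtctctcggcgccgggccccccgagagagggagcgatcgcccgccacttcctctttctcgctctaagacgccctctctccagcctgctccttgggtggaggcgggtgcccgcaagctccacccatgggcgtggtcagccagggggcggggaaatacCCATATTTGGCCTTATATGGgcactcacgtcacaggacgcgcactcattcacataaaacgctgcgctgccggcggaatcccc

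The CRE lies 143 to 136 bases before the Dusp1 start, and the CArG boxes lie 82 to 73 and 72 to 63 bases before the Dusp5 start, with no base shared between them. Among 27025 promoters of the same length, 1.62% held the CRE and 1.4% a CArG box on either strand. The other motifs searched on both strands, TGANTCA for AP-1 (in 6.87% of promoters), CCGGAA for ETS factors (12.2%) and TTCNNNGAA for STAT factors (7.18%), had no match in the 8 members with a promoter in the table. Motifs searched did not overlap in these 8 windows. A match is a description of letters and not of binding.

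Dusp2, a nuclear phosphatase of ERK and p38 found mainly in blood cells, was higher with Epo. Without Epo it lay at 6.04 at 0 h, 6.59 at 1 h and 5.49, 5.19, 5.74, 5.43, 5.18 and 5.19 at 2 to 7 h. With Epo it lay at 6.05 and 6.03 at 0 and 1 h, at 6.77, 6.62, 6.39 and 6.56 at 2 to 5 h, and at 6.06, 5.77 and 5.42 at 6 to 8 h. From 2 to 7 h each array with Epo was above every array of those hours without Epo, but the array of 1 h without Epo made the groups overlap. On average Dusp2 differed by 0.77 ± 0.20 (SE, n = 7 pairs; limma adjusted p = 0.00906), with 6 of 7 pairs higher with Epo. The 0 h arrays differed by 0.00, and with that difference subtracted the value was 0.77 (adjusted p = 0.482 with drift allowed). Without Epo Dusp2 fell with a slope of -0.15 ± 0.05 per hour (SE; limma adjusted p = 0.0253). It was one of 3 members called falling and 0 rising there, against 15.4% and 13.3% of all genes (28.7% in either direction). The call was lost when the array of 0, 1, 6 or 7 h was left out (adjusted p up to 0.0691).

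Dusp5, a nuclear phosphatase specific to ERK, took nearly the same course in both groups after the first hour. Without Epo it lay at 4.28 at 0 h, 5.77 at 1 h and 5.20, 5.12, 5.12, 4.46, 4.60 and 4.62 at 2 to 7 h. With Epo it lay at 4.50 at 0 h, 5.07 at 1 h and 5.32, 5.14, 5.01, 4.51, 4.60 and 4.68 at 2 to 7 h. The matched differences at 2 to 7 h ran from -0.11 to 0.13, and only that of 1 h, at -0.71, stood apart. Over 1 to 7 h this gave a difference of -0.08 ± 0.11 (SE, n = 7 pairs; limma adjusted p = 0.582), and 0.02 without 1 h.

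Dusp4 and Dusp6 were dim, and neither passed the test between the groups. Dusp6, the cytoplasmic phosphatase specific to ERK, went down in both groups. With Epo it lay at 4.73 at 0 h, 3.81 at 1 h, 3.44 at 2 h, 2.88 at 3 h and 2.32 to 2.56 at 4 to 8 h. Without Epo it lay at 3.81 at 0 h, 4.53 at 1 h, 3.16 at 2 h and 2.43 to 3.01 at 3 to 7 h. With Epo it was one of 2 members called falling over 1 to 8 h, against 3.62% of all genes (5.8% in either direction). Its slope was -0.20 ± 0.03 per hour with Epo (SE; limma adjusted p = 0.00145) and -0.20 ± 0.06 over 0 to 7 h without (adjusted p = 0.023, but 0.0574 without 0 h). Between the groups Dusp6 stood at -0.26 ± 0.11 (SE, n = 7 pairs; adjusted p = 0.0903), and at -0.33 after centring each array on its median (adjusted p = 0.0324). Without 2 h it was -0.35 (adjusted p = 0.0215). At 0 h Dusp6 lay 0.91 higher with Epo, the widest 0 h gap of the 10 members, and with this subtracted the difference was -1.17 (adjusted p = 0.0517 with drift allowed, and 0.406 without). Dusp4, a nuclear phosphatase of ERK and JNK, lay between 2.37 and 3.34 in all 20 arrays, with a difference of 0.15 ± 0.08 (adjusted p = 0.157), or 0.22 without 1 h (adjusted p = 0.0349).

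By their brightest probe sets, Spry1 and Spry4 were higher and Spry2 lower with Epo, each in 7 of 7 pairs. The share of all genes with the same sign in 7 pairs was not computed. For Spry4 the pairs of 5 and 6 h differed by only 0.10 and 0.07. Spry1 and Spry2 encode inhibitors of the step between activated receptors and ERK. Spry1 lay at 5.67 at 0 h with Epo, 5.53 at 1 h and 6.16, 6.67, 6.39, 6.31, 6.53, 6.58 and 6.38 at 2 to 8 h. Without Epo it lay at 5.94 at 0 h and 5.38, 5.24, 5.39, 5.63, 5.50, 5.58 and 5.58 at 1 to 7 h. From 2 h on every array with Epo was above every array without, and the 1 h arrays, 0.15 apart, made the groups overlap. Spry1 differed by 0.84 ± 0.12 (SE, n = 7 pairs; limma adjusted p = 0.000233). With the 0 h difference of -0.27 subtracted it was 1.11 (adjusted p = 0.0574 with drift allowed, and 0.524 without). The level with Epo was still 6.28, 6.54 and 6.69 at 14, 19 and 24 h.

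By its brighter probe set, Spry2 went down with Epo and stayed level without. With Epo it lay at 4.51 at 0 h, 4.07 at 1 h, 4.14 at 2 h, 3.44 at 3 h, 3.07 at 4 h, 2.96 at 5 h, 2.83 at 6 h, 3.03 at 7 h and 3.19 at 8 h, and at 2.77 to 2.95 at 14 to 24 h. Without Epo all 8 arrays lay between 4.23 and 4.76. The groups did not overlap at 1 to 7 h. The mean difference was -1.08 ± 0.14 (SE, n = 7 pairs; limma adjusted p = 9.09e-05), and -1.13 with the 0 h difference subtracted (adjusted p = 0.0438 with drift allowed, and 0.563 without). It grew from -0.69 at 1 h to -1.54 at 5 h and was -1.27 at 7 h. Its slope of -0.16 ± 0.05 per hour (SE) passed narrowly (limma adjusted p = 0.0459) and failed when the array pair of 1, 2, 3, 5 or 6 h was left out (adjusted p up to 0.163 without 2 h). With Epo alone the slope was -0.16 ± 0.04 per hour (adjusted p = 0.0193), a call lost without 1, 2 or 6 h (adjusted p up to 0.115). The second Spry2 probe set, also dim, showed a smaller difference of -0.25 ± 0.10 (SE) that did not pass (adjusted p = 0.0558 over all 34958 probe sets, of which 37.8% were called). Its course with Epo was another one, at 3.46 at 0 h, 3.11 at 1 h, 3.77 at 6 h and 3.67 at 24 h. With both probe sets averaged the groups differed by -0.67 ± 0.06 (SE; adjusted p = 2.70e-05), the slope of the difference was -0.03 (adjusted p = 0.696) and the slope with Epo -0.05 (adjusted p = 0.208).

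Spry4, another Sprouty inhibitor, was slightly higher with Epo. Without Epo it lay between 4.55 and 5.04 at 1 to 7 h (median 4.85), and with Epo between 5.01 and 5.49 (median 5.13), so that the groups overlapped at their edges. Spry4 differed by 0.39 ± 0.10 (SE, n = 7 pairs; limma adjusted p = 0.00959). The 0 h arrays already differed by 0.22, and with this subtracted the difference was 0.17 (adjusted p = 0.839 with drift allowed). Of its 4 probe sets the 2 brightest were called higher, and the 2 dim ones lay at 0.00 and 0.01, so that the mean over all 4 differed by 0.18 (adjusted p = 0.022). At 14, 19 and 24 h with Epo its level was 5.68, 5.69 and 5.55, above all arrays of 1 to 8 h.

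**Figure D3:**
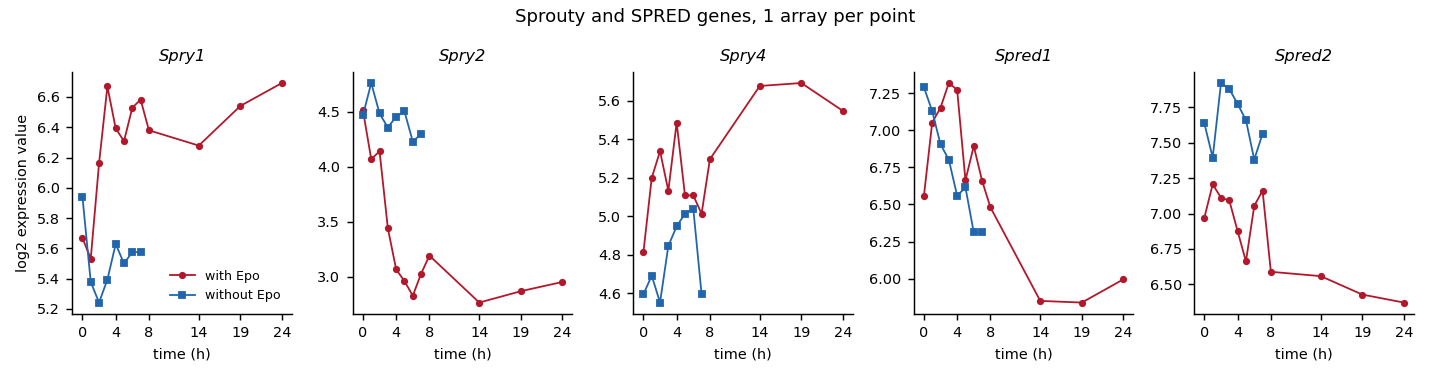
Log2 expression value (vertical axis, its own range in each panel) of the Sprouty and SPRED genes against time in hours, with Epo (red circles, 12 arrays) and without (blue squares, 8 arrays), 1 array per point and no error bars. Spry2 with Epo goes from 4.51 at 0 h to 2.83 at 6 h while it stays at 4.23 to 4.76 without Epo, and Spred1 ends at 5.84 to 5.99 at 14 to 24 h.

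The SPRED genes moved in opposite directions between the groups, but both calls depended on the probe set. Spred2 lay at 7.38 to 7.92 at 1 to 7 h without Epo (median 7.66) and at 6.66 to 7.21 with Epo (median 7.09), with no overlap. Spred2 differed by -0.63 ± 0.12 (SE, n = 7 pairs; limma adjusted p = 0.00136), lower in 7 of 7 pairs. The 0 h arrays were already apart by -0.66, so with that subtracted the difference was 0.03 (adjusted p = 0.98 with drift allowed). Among the 5 Spred2 probe sets, 2 were called lower (-0.63 and -0.53), 1 higher (0.41) and 2 were not called (0.15 and 0.37), and the mean over all 5 differed by -0.05 (adjusted p = 0.62).

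Spred1 lay at 6.31 to 7.13 at 1 to 7 h without Epo (median 6.61) and at 6.66 to 7.32 with Epo (median 7.05). The groups overlapped, and 6 of 7 pairs were higher with Epo. The mean difference was 0.34 ± 0.11 (SE, n = 7 pairs; limma adjusted p = 0.0327). It did not pass without 3, 4, 6 or 7 h (0.28 to 0.34, adjusted p up to 0.0993 without 4 h) or after median centring (0.27, adjusted p = 0.0921). At 0 h Spred1 lay the other way round, at 7.29 without Epo and 6.56 with Epo. With that subtracted the difference was 1.08 (adjusted p = 0.0491 with drift allowed, and 0.509 without). Without Epo it went from 7.29 at 0 h through 7.13, 6.91, 6.80, 6.56, 6.61 and 6.31 to 6.31 at 7 h, a fall with a slope of -0.14 ± 0.02 per hour (SE; limma adjusted p = 0.000372). The mean over its probe sets had a slope of -0.03 (adjusted p = 0.15). Of its 8 probe sets, 2 were called higher (0.34 and 0.66), 1 lower (-0.33, a dim set with a suffix for cross-hybridisation) and 5 were not called.

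**Figure D4:**
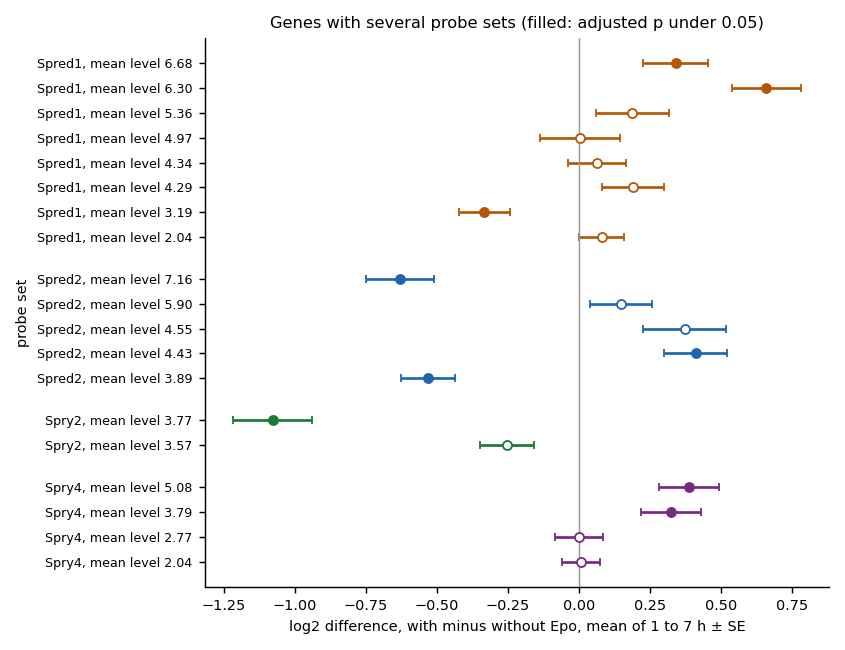
Log2 difference between the groups, Epo minus no Epo, as the mean of 1 to 7 h with its SE (horizontal axis) for each probe set of the 4 genes with several, labelled by gene and mean log2 level, with filled points for an adjusted p under 0.05. The Spred2 probe sets lie on both sides of 0, from -0.63 to 0.41, and those of Spry4 at 0.39 and 0.32 for the 2 brightest and near 0 for the others.

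Counted together, 4 of 10 members were higher and 3 lower with Epo (limma adjusted p under 0.05), against 18.2% of all genes higher and 20.2% lower (38.4% in either direction). The higher ones were Dusp2, Spry1, Spry4 and Spred1, the lower ones Dusp1, Spry2 and Spred2. Calls were more common among bright genes. With only genes above the median of all genes tested, 61.4% were called, as were all 6 members there (4 higher, 2 lower). After centring each array on its median 3 of the 10 members were higher and 4 lower. Over all genes 2391 of 6868 calls were then higher, against 3312 of 6982 without centring. The median over the members was 0.04, and that over all genes 0.03. The 3 members whose groups did not overlap at 1 to 7 h, Dusp1, Spry2 and Spred2, were all lower with Epo, against 7.31% of genes apart in that direction and 6.56% in the other (13.9% in all). Of the 3, Dusp1 and Spry2 differed at least 2-fold and passed, against 3.67% of all genes in that direction. For Spry2 this rests on its brighter probe set, and the mean of both differed by -0.67. Spred2 was already apart by -0.66 at 0 h. With the 0 h difference subtracted and a drift allowed, Dusp1 and Spry2 were called lower and Spred1 higher, against 3.73% of all genes. Without drift 0 of 10 members and 12 of 18194 genes passed (limma), and a single pair of 0 h arrays makes that test less precise. All these comparisons share arrays.

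**Figure D5:**
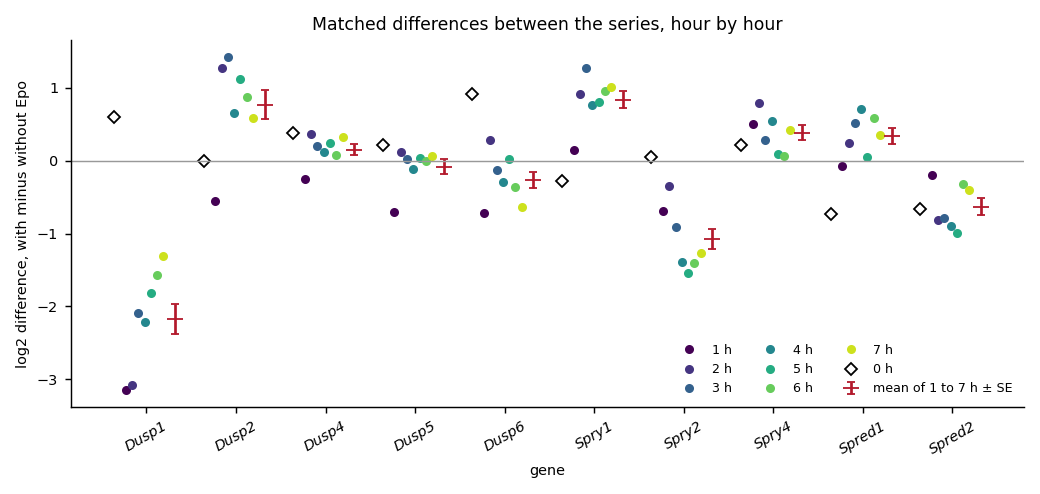
Log2 difference, Epo minus no Epo, at each matched hour (vertical axis) for the 10 genes, with 1 to 7 h as coloured points, 0 h as an open diamond, and the mean of 1 to 7 h with its SE in red. Dusp1 lies between -3.15 and -1.31 at 1 to 7 h against 0.60 at 0 h, and for Spred2 the 0 h diamond at -0.66 lies among the later points.

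Late in the culture with Epo the share of members called was near that of all genes. The mean of 14, 19 and 24 h was set against that of 1 to 8 h, and 2 members were called higher and 2 lower, against 17.6% and 18.5% of all genes (36.2% in either direction). Over all genes 3207 of 6579 late calls were higher, and 2202 of 5940 after median centring. When only genes above the median of all genes were tested, 55.6% were called late, as were 4 of the 6 members there. Spred1 fell most, from 6.48 to 7.32 at 1 to 8 h to 5.85, 5.84 and 5.99, a difference of -1.04 ± 0.18 (SE, 3 arrays against 8; limma adjusted p = 0.000485), and 5 of its 8 probe sets were called lower. Spred2 lay at 6.56, 6.43 and 6.37, lower by -0.52 ± 0.15 (SE; adjusted p = 0.0166). Its dimmest probe set was called lower too, by -0.69 (limma adjusted p = 0.0032). Its second brightest was called higher by 0.37 (adjusted p = 0.0331), and the others were not called. The call of the brightest was lost after quantile normalization (-0.29, adjusted p = 0.148). Without 19 or 24 h the adjusted p of the brightest was 0.0515 and 0.059.

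Dusp1 was higher late, at 8.79, 9.04 and 8.91 against 7.23 to 8.64 at 1 to 8 h, by 0.83 ± 0.25 (SE, 3 arrays against 8; limma adjusted p = 0.0169). It passed no longer without 19 h (0.77, adjusted p = 0.0664) or 24 h (0.83, adjusted p = 0.0517), nor against 6 to 8 h alone (0.38, adjusted p = 0.157). Its late values stayed under the 9.81 to 11.38 of the group without Epo at 1 to 7 h. Spry4 was higher by 0.43 ± 0.12 (SE; adjusted p = 0.0142), and by 0.50 against 6 to 8 h alone (adjusted p = 0.0669). These 4 genes, Dusp1 and Spry4 above and both SPRED genes below, had late arrays clear of all arrays of 1 to 8 h, as did 11.8% of genes above and 14.3% below. Dusp2 was uneven late, at 5.59, 4.90 and 6.46. Its difference was -0.56 ± 0.31 (SE; adjusted p = 0.168), or -0.96 without 24 h (adjusted p = 0.0304).

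The rest of the pathway was read from lists of named genes, whose counts stand against the 18.2% of all genes called higher and 20.2% called lower (38.4% in either direction). For many of these genes the groups already differed at 0 h, so the difference with that of 0 h subtracted is given too, without a test. Calls were more common among bright genes, at 61.4% when only genes above the median of all genes were tested. Above it lay 10 of the 17 other inhibitors, 20 of 29 ERK response genes and 13 of 16 receptor and adaptor genes. The same held for 11 of 12 cascade genes and 8 of 12 JNK and p38 kinase genes. Of 17 other inhibitors of MAP kinases and RAS, 2 were higher and 5 lower with Epo (median 0.02, limma adjusted p under 0.05). Dusp16, a phosphatase of JNK and p38, was lower by -1.89 ± 0.47 (SE; adjusted p = 0.00744) in 6 of 7 pairs. With Epo its highest array was that of 1 h, at 8.31 after 5.85 at 0 h, and at 3 h it was 6.42. Without Epo it was 6.58 at 1 h, 9.04 at 2 h and 8.60 to 9.53 at 3 to 7 h. Dusp10, another phosphatase of JNK and p38, was lower too, at -1.11 ± 0.19 (SE; adjusted p = 0.000623). Dusp19 (1.32 ± 0.11) and the ERK phosphatase gene Dusp9 (0.44 ± 0.10) were higher (SE; adjusted p = 6.79e-06 and 0.00391), having lain 1.4 and 1.11 higher already at 0 h. With the 0 h difference subtracted Dusp16 stood at -1.52, Dusp10 at -0.56, Dusp19 at -0.08 and Dusp9 at -0.67, so that the sign turned for Dusp19 and Dusp9.

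Of 29 ERK response genes, 3 were higher and 12 lower with Epo (median -0.07), against 18.2% and 20.2% of all genes. In the first hour 13 of the 29 rose at least 2-fold without Epo and 12 with Epo, against 68 and 62 of all 18194 genes. Egr1, a transcription factor gene induced by ERK, was higher by 2.33 ± 0.23 (SE; limma adjusted p = 1.94e-05) and rose by 4.16 in the first hour with Epo and by 1.95 without. Jun, an AP-1 subunit gene, was lower by -3.14 ± 0.18 (SE; adjusted p = 8.60e-07) and rose in the first hour by 6.00 without Epo and by 1.63 with it. These rises started from unequal levels, 4.94 without and 6.96 with Epo at 0 h, and with that gap subtracted the difference was -5.17. For Egr1 it was 1.78. The immediate early genes Ier2 and Ier5 were lower as well, at -2.73 ± 0.17 and -2.06 ± 0.11 (SE; adjusted p = 1.07e-06 and 8.60e-07).

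Upstream of ERK, 2 of 16 receptor and adaptor genes were higher and 8 lower (median -0.28), against 18.2% and 20.2% of all genes. Kit was lower by -2.17 ± 0.21 (SE; limma adjusted p = 1.34e-05) after -1.4 at 0 h, Jak2 by -0.91 ± 0.17 (adjusted p = 0.00122) and Epor by -0.89 ± 0.14 (adjusted p = 0.000521). Rasgrp2, an activator of RAS-like GTPases, was higher by 0.69 ± 0.18 (SE; adjusted p = 0.00961) after 1.37 at 0 h. Of 20 listed genes of the cascade itself 12 were tested, and of these 1 was higher and 4 lower (median -0.23). This share lay near the 38.4% of all genes called. It lay under the 61.4% called among genes above the median of all genes, where 11 of the 12 belong. The RAS gene Nras stood at 0.49 ± 0.11 and the RAF gene Braf at -0.46 ± 0.13 (SE; adjusted p = 0.00528 and 0.0138). Of the cascade genes, Rps6ka5 and Mknk2, which encode kinases that ERK or p38 can activate, were lower at -1.30 ± 0.18 and -1.08 ± 0.11 (SE; adjusted p = 0.000151 and 2.07e-05). Relative to their 0 h difference Kit stood at -0.77, Jak2 at -0.34, Epor at -0.49, Rps6ka5 at -0.41, Mknk2 at -0.50 and Nras at 0.36, while the sign turned for Rasgrp2 (-0.68) and Braf (0.13). Of 12 JNK and p38 kinase genes 3 were called, a smaller share than over all genes: 1 was higher, Mapkapk3 (0.85 ± 0.18; adjusted p = 0.00281), and 2 were lower, Mapk14 (-0.44 ± 0.09; adjusted p = 0.0018) and Map2k6 (-0.27 ± 0.10; adjusted p = 0.0445). Relative to 0 h these 3 stood at 1.08, -0.21 and -0.09.

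The genes most like 3 members in their course over the 20 arrays were sought by Pearson correlation, as a description. Dusp1 was most like Klf11, a repressor gene (r = 0.90), Txnip, an inhibitor of thioredoxin (0.88), and Herpud1, a gene of the unfolded protein response (0.86). Spry1 was most like Pim1, a kinase gene that STAT5 induces (0.94), Srxn1, which repairs oxidised peroxiredoxins (0.93), and Fhl1 (0.91). Dusp2 was most like Pim3, a kinase gene of the PIM family (0.83), Rcan3 (0.79) and Gjb6 (0.78), the last being dim. Pim1 was higher with Epo by 1.94 ± 0.16 (SE; limma adjusted p = 5.25e-06). The 20 arrays come from the same pair of time courses, so the correlations describe courses and nothing more.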

How the data were processed

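Total RNA of 20 samples was labelled for Affymetrix mouse arrays, per the labels' protocols. The deposited values are log2 probe set levels from 1.37 to 14.6. Summarisation and scaling by the authors are not given in the sources used here. Arrays have no depth, and their number limits the precision. Of 45101 probe sets, 34958 named 1 gene in the platform annotation, 932 several, and 9211 were unnamed here. The highest-mean probe set stood for each of 18194 genes, and symbols were left as annotated.

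Fits were made with limma 3.58.1 in R 4.3.3 (empirical Bayes with trend) on all genes: the mean and the slope of the 7 matched differences at 1 to 7 h with time as a block, the slopes over 0 to 7 h without Epo and 1 to 8 h with Epo, and the mean of 14, 19 and 24 h against 1 to 8 h with Epo. A call means p under 0.05 after Benjamini-Hochberg adjustment across all 18194 genes. Fits were tested on simulated data. Single-array changes have no test.

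The members and lists were chosen with earlier results of these data known. All 10 members are named, from each pathway list the up to 4 called genes with the largest difference, and for the 3 members above the median of all genes with the largest SD the 3 genes most correlated, clone names left out. Cish and Socs3, named as references by that rule, were higher with Epo by 2.26 and 3.05. List entries without a probe set of their own were not analysed here.

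Alternatives were other scalings, probe set choices, variance models, time scales, uses of the 0 h arrays and leaving out each time. The test of every probe set on its own was added after the data were seen. Tables were made with pandas 2.3.3 and numpy 2.4.6 in Python 3.11.15, and plots with matplotlib 3.10.9.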

Additional observations from a re-analysis of the deposited data

Results flagged for a closer look

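The 0 h array without Epo stood apart from the other 7 arrays of that group for Dusp1, at 7.79, by a gap test that chance passes in about 1 of 20 groups. That rate holds for independent values and not for a time course, and the test was run for all 10 members. The slope of the difference over 1 to 7 h was called for Dusp1 (0.31 per hour) and narrowly for Spry2 (-0.16 per hour, limma adjusted p = 0.0459). The Dusp1 slope was -0.02 with 0 h included (limma adjusted p = 0.949). That of Spry2 was -0.03 with its probe sets averaged (limma adjusted p = 0.696).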

How the results depend on the processing

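Calls of Dusp1, Dusp2, Spry1, Spry2, Spry4 and Spred2 between the groups kept direction and threshold with each hour left out, and 6 to 8 members were called. With the mean of all probe sets 5 were called, without Spred1 (0.15, limma adjusted p = 0.141) and Spred2 (-0.05, limma adjusted p = 0.62). With the 0 h difference subtracted 0 members passed, and 3 with drift allowed; Dusp4 turned to -0.22 and Spred2 to 0.035 under both. Dusp5 ranged from -0.12 to 0.022 with each hour left out. For the slope of the difference 2 members were called, and 1 with quantile normalization, median centring, brighter genes only, the mean of probe sets, no trend, or 0 h as a further difference (Dusp1 then -0.022). Leaving out an hour gave 1 to 2. Without Epo the Dusp1 slope of 0.08 turned to -0.18 over 1 to 7 h (-0.18 to 0.22 with each hour left out), and 2 to 4 members were called. With Epo 3 members were called over 1 to 8 h, 1 with the mean of probe sets, 5 on log2 of time to 24 h, and 1 to 4 with an hour left out. Late, 4 were called, 1 against 6 to 8 h, and 2 to 4 with a time left out. Causes of these shifts were not tested. Median centring moved the share of higher calls over all genes, from 3312 of 6982 to 2391 of 6868 between the groups and from 3207 of 6579 to 2202 of 5940 late. Without the time block 6 members were called between the groups. Dim probe sets (Dusp4, Dusp5, Dusp6, Spry2) limit how small a difference can be read.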
